A study of Mus musculus with 4 samples.

Results

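A group of 10 genes, most of which cells switch on within minutes of a stimulus, was followed in RNA-Seq libraries of type 2 innate lymphoid cells (ILC2s) from mouse lungs. The genes were listed by symbol and not by a cutoff on their values, though earlier results of these data were known. They comprised the AP-1 subunits *Fos*, *Fosb*, *Jun*, *Junb* and *Jund*, the transcription factors *Egr1*, *Atf3* and *Nr4a1*, the regulator *Ier2* and the phosphatase *Dusp1*. All 10 were found among the 49315 genes of the count table, and all 10 were among the 14840 genes compared, which had at least 1 CPM in at least 1 library. CPM are counts of a gene scaled to a common library size. The study asked how ILC2s differ in bleomycin-induced lung fibrosis in a mouse model of Hermansky-Pudlak syndrome, an inherited disorder of lysosome-related organelles. Cells of the phenotype Lineage-Thy1.2+ICOS+T1/ST2+ were taken from wild-type (WT) C57BL/6 mice and from *Hps1*-/- mice, in which a gene for a subunit of the organelle biogenesis complex BLOC-3 is inactive, after PBS or bleomycin, and all were then cultured with IL-2 before RNA was extracted. The 4 groups, PBS-WT and BLEO-WT for WT and PBS-HPS1 and BLEO-HPS1 for *Hps1*-/- mice, had 1 library each, and lists of 4 values below follow that order. The methods describe bleomycin given into the trachea or the peritoneum without tying a route or an age to these libraries, and the number of mice behind a library is not given in the sources used here.

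Immediate early genes are transcribed from promoters that already hold their activators, so their RNA appears without new protein synthesis and is soon degraded. Growth factors, cytokines, stress and mechanical handling of cells reach them through MAP kinases, which act on the ternary complex factors bound with SRF and on CREB, and through calcium signals. The proteins of the FOS and JUN families pair as AP-1, which binds the promoters and enhancers of many activation genes of lymphocytes, while DUSP1 removes the phosphates from MAP kinases and so limits the signal. In immune cells NR4A1 and the EGR factors are widely used as signs of recent stimulation.

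The windows that RefSeq gives around the start of transcription, 250 bases before to 50 bases after, were read for the 10 genes on GRCm38.p6. A window was found for 8 of them, *Fos*, *Fosb*, *Jun*, *Junb*, *Jund*, *Atf3*, *Dusp1* and *Nr4a1*, and that of *Jund* ends upstream of the gene span given below from GENCODE. They were searched on both strands for the cyclic AMP response element TGACGTCA bound by CREB, its half-site TGACGT, the AP-1 site TGANTCA, the EGR site GCGGGGGCG, the TATA box TATAAA and the CArG box of SRF. The windows of *Fos*, *Fosb*, *Dusp1* and *Nr4a1* are shown because they hold different elements. Capitals mark the matches, which in *Dusp1* are 1 full element and 1 further half-site, in *Fos* a half-site and a TATA box, and in *Fosb* and *Nr4a1* an EGR site, read on the opposite strand in *Nr4a1*.
*Fos*, chr12:85473640-85473939, plus strand: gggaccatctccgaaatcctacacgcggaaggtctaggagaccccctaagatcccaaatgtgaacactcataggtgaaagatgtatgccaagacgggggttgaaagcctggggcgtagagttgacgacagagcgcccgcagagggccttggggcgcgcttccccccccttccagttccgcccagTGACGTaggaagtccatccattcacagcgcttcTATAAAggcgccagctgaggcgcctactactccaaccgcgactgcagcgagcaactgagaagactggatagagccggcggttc
*Fosb*, chr7:19309996-19310295, minus strand: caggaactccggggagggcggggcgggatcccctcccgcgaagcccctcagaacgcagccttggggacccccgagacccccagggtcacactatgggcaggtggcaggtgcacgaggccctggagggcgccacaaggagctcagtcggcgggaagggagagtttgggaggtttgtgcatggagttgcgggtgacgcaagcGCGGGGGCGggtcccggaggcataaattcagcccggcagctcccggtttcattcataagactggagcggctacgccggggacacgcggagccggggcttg
*Dusp1*, chr17:26508423-26508722, minus strand: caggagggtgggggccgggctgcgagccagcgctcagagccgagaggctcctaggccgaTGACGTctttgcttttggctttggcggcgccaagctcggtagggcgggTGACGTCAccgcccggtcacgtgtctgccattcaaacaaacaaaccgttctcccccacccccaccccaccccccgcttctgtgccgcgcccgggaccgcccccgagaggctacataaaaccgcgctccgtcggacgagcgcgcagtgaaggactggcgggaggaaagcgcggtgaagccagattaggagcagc
*Nr4a1*, chr15:101266596-101266895, plus strand: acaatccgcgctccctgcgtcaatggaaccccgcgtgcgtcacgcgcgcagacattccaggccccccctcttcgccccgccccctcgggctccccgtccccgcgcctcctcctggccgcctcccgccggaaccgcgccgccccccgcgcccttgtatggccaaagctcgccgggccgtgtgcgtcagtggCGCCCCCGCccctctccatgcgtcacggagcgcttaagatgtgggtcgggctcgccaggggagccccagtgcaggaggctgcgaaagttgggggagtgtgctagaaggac
Of the 8 windows, 1 held the full TGACGTCA element, 3 the half-site, 2 the EGR site and 2 the TATA box. The full element overlaps the half-site by its construction. These are descriptions of letters in a short window. Over all 32851 windows, the full element was found in 1.79%, the half-site in 7.51%, the EGR site in 2.91% and the TATA box in 13.6%. The AP-1 site, found in 7.81% of all windows, and the CArG box, found in 1.63%, were in none of these 8.

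The libraries held between 72513619 and 87638154 reads, and 3 reads corresponded to between 0.0303 and 0.0475 CPM, so depth did not limit the 10 genes, whose counts lay between 23801 and 385786. *Hps1*, the gene inactive in the mutant mice, had 38.3 CPM in PBS-WT and 48.4 in BLEO-WT against 16.6 in PBS-HPS1 and 21.3 in BLEO-HPS1. The cells that entered the libraries numbered 22405 in PBS-WT and 84166 in BLEO-WT, and 38873 in PBS-HPS1 and 128647 in BLEO-HPS1. The sort genes were present in every library, with *Thy1* between 206 and 551 CPM, *Icos* between 32.1 and 79.9 and *Il1rl1*, which encodes T1/ST2, between 23.8 and 40.9. All 11 ILC2 markers and all 8 markers of macrophages and monocytes had reads in every library. The ILC2 markers summed to 905 CPM in PBS-WT and 1154 in BLEO-WT, and 804 in PBS-HPS1 and 1180 in BLEO-HPS1. The macrophage and monocyte markers summed to 11765, 16870, 7758 and 15424 CPM in the same order, most of it from *Lyz2*, a lysozyme gene, although the lineage gate of the sort included CD11b, a myeloid marker, and the methods report a high purity. The T cell marker sum ranged from 524 to 1110 CPM, B cells from 143 to 355, neutrophils from 339 to 1340, fibroblasts from 164 to 2680, endothelial cells from 642 to 747 and epithelial cells from 372 to 1083, and all of these markers had reads in every library. Which cells in a library held the RNA of a gene cannot be read from these counts, and fewer cells of a type and less RNA per cell cannot be told apart.

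The 10 genes were among the most abundant transcripts of each library. Together they took 1.35% of all reads in PBS-WT and 1.76% in BLEO-WT, and 1.44% in PBS-HPS1 and 1.29% in BLEO-HPS1. Ranked by TPM, which divides reads by the exon length of the gene, all 40 values of 10 genes in 4 libraries fell within the top 500 genes and 15 within the top 100. *Junb* ranked highest of the 10 in every library, at 20 in PBS-WT and 15 in BLEO-WT, and 15 in PBS-HPS1 and 27 in BLEO-HPS1. *Fos* ranked 32, 32, 27 and 97 and *Dusp1* 34, 35, 33 and 74 in the same order. *Fosb* ranked 476 in PBS-WT, the lowest place of any of the 40 values, and 199 in BLEO-WT. The scaled level of 9 of the 10 genes was highest in BLEO-WT, against 19.1% of all genes compared, and *Jund* was highest in BLEO-HPS1. As shares of the total counts, 8 of the 10 were highest in BLEO-WT.

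**Figure D1:**
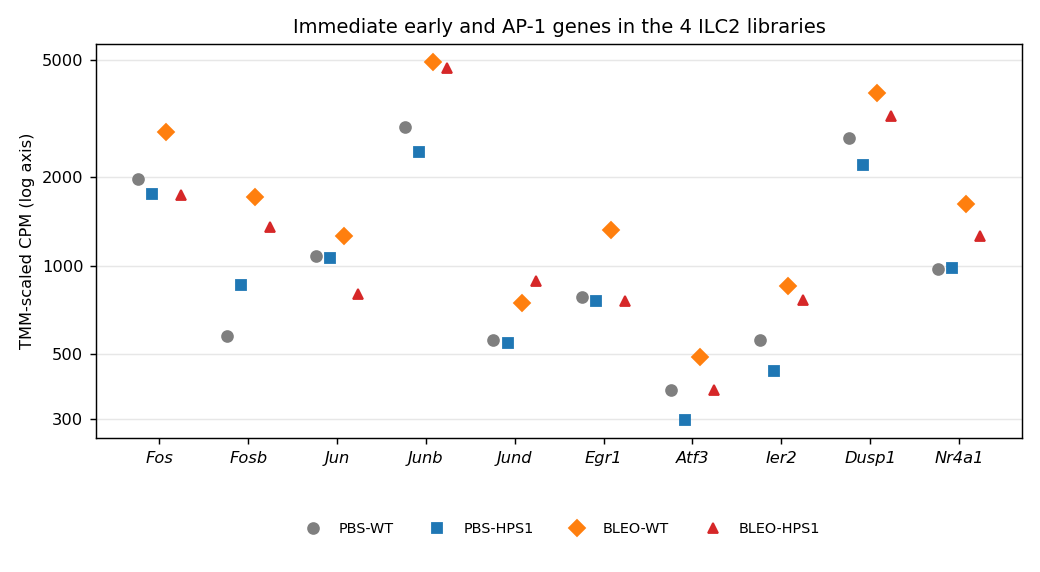
Scaled CPM (log axis) of the 10 genes in the 4 libraries, 1 point per library and gene. The BLEO-WT library is the highest point for every gene except *Jund*, and *Fosb* has the widest range, from 575 CPM in PBS-WT to 1704 in BLEO-WT.

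Among the FOS proteins, which bind DNA as partners of JUN proteins, *Fos* and *Fosb* differed in pattern. *Fos* (ENSMUSG00000021250, chromosome 12 of GRCm38, 85473890 to 85477273, plus strand) had 1962 CPM in PBS-WT and 2849 in BLEO-WT, and 1749 in PBS-HPS1 and 1734 in BLEO-HPS1. As scaled, only the BLEO-WT library stood above the others. By TPM, *Fos* had 2671 in PBS-WT and 3081 in BLEO-WT, and 3009 in PBS-HPS1 and 1540 in BLEO-HPS1. In scaled CPM, the log2 ratio of BLEO-WT to PBS-WT was 0.54 (95% interval 0.53 to 0.55), and that of BLEO-HPS1 to PBS-HPS1 was -0.01 (-0.02 to -0.00). By total counts the latter was -0.66. These exact Clopper-Pearson intervals reflect only the counting of reads, as the groups had no replicates. *Fosb* (ENSMUSG00000003545, chromosome 7, 19302696 to 19310051, minus strand) had 575 CPM in PBS-WT and 1704 in BLEO-WT, and 861 in PBS-HPS1 and 1348 in BLEO-HPS1. It was lowest in PBS-WT, and both bleomycin libraries were above both PBS libraries as scaled. Its log2 ratio of BLEO-WT to PBS-WT, 1.57 (1.55 to 1.58), was the only one of the 10 genes that reached a 2-fold difference in any comparison, while in *Hps1*-/- mice the ratio was 0.65 (0.63 to 0.66). By total counts the latter was 0.003, with 85278 reads in PBS-HPS1 and 85172 in BLEO-HPS1. With PBS, *Fosb* was also the gene with the largest difference between genotypes, a log2 ratio of 0.58 in *Hps1*-/- over WT.

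The JUN genes, whose products can pair with each other as well as with FOS proteins, separated in the bleomycin-treated *Hps1*-/- library. *Jun* (ENSMUSG00000052684, chromosome 4, 95049034 to 95052222, minus strand) had 1078 CPM in PBS-WT and 1257 in BLEO-WT, and 1060 in PBS-HPS1 and 803 in BLEO-HPS1. It was lowest in BLEO-HPS1, with a log2 ratio of -0.40 (-0.42 to -0.39) to PBS-HPS1 and of -0.65 (-0.66 to -0.63) to BLEO-WT. *Junb* (ENSMUSG00000052837, chromosome 8, 84974484 to 84978718, minus strand), which often counteracts JUN in growth control, had 2959, 4920, 2433 and 4687 CPM. Both bleomycin libraries were above both PBS libraries, by log2 ratios of 0.73 (0.73 to 0.74) in WT and 0.95 (0.94 to 0.95) in *Hps1*-/- mice. *Jund* (ENSMUSG00000071076, chromosome 8, 70698949 to 70700616, plus strand), the JUN gene least dependent on stimulation in most cells, had 558 CPM in PBS-WT and 747 in BLEO-WT, and 543 in PBS-HPS1 and 883 in BLEO-HPS1. It was the only one of the 10 genes with more CPM in BLEO-HPS1 than in BLEO-WT, a log2 ratio of 0.24 (0.22 to 0.26).

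The ratio of reads between 2 genes of the same library does not depend on how the library was scaled. The pairs were chosen after the values were seen. There were 0.293 *Fosb* reads per *Fos* read in PBS-WT and 0.598 in BLEO-WT, and 0.492 in PBS-HPS1 and 0.778 in BLEO-HPS1. *Fosb* thus gained on *Fos* in each bleomycin library and in each *Hps1*-/- library. *Jun* reads per *Junb* read were 0.365, 0.255, 0.436 and 0.171 in the same order, lower in both bleomycin libraries. *Jun* reads per *Jund* read were 1.93, 1.68, 1.95 and 0.910, below 1 in BLEO-HPS1 alone. These read ratios are not adjusted for exon length, which was 3189 bases in *Jun* and 1668 in *Jund*. By TPM, *Jund* was above *Jun* in BLEO-WT too, at 1139 against 1002, and at 1105 against 526 in BLEO-HPS1. After a correction of the ratios for GC content and transcript length, described below, the change of *Jun* against *Junb* between BLEO-WT and BLEO-HPS1 went from -0.58 to -0.30 on the log2 scale, that of *Jun* against *Jund* from -0.89 to -0.61, and that of *Fosb* against *Fos* from 0.38 to 0.37.

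**Figure D2:**
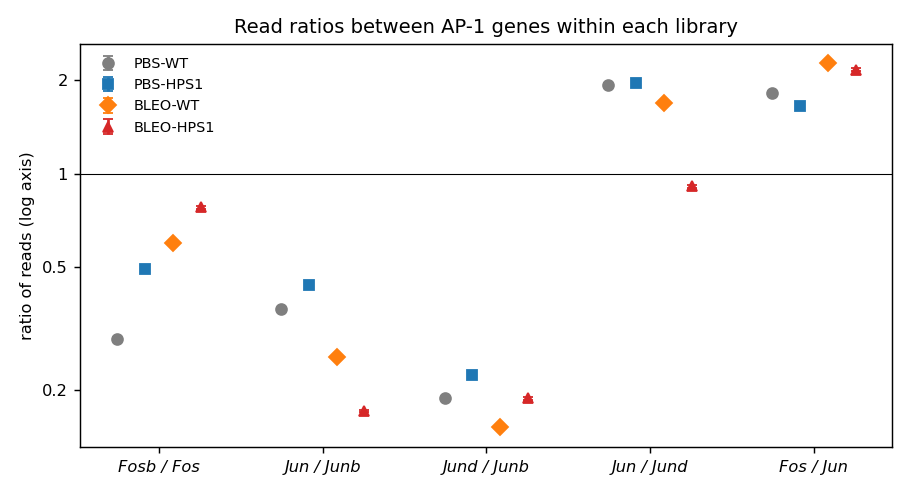
Ratio of reads (log axis) between 2 AP-1 genes within a library for 5 pairs, with 95% exact intervals for counting error that are mostly smaller than the symbols. *Fosb* per *Fos* was lowest in PBS-WT at 0.293 and highest in BLEO-HPS1 at 0.778. *Jun* per *Jund* was below 1 in BLEO-HPS1 alone, in reads not adjusted for exon length.

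As scaled, the other transcription factors fell into 2 patterns. *Egr1* (ENSMUSG00000038418), a zinc finger factor induced through SRF, had 781 CPM in PBS-WT and 1318 in BLEO-WT, and 759 in PBS-HPS1 and 757 in BLEO-HPS1. By TPM it had 558 in PBS-WT and 748 in BLEO-WT, and 685 in PBS-HPS1 and 352 in BLEO-HPS1. Like *Fos*, it was high in BLEO-WT alone as scaled, with log2 ratios of 0.75 (0.74 to 0.77) for bleomycin in WT and -0.00 (-0.02 to 0.01) in *Hps1*-/- mice. The latter lay within counting error as scaled, but it was -0.65 by total counts and -0.41 after a correction for GC content and transcript length. The ratio of BLEO-HPS1 to BLEO-WT, -0.80 (-0.82 to -0.79), was the lowest of the 10 genes. *Nr4a1* (ENSMUSG00000023034, chromosome 15, 101254269 to 101274795, plus strand), an orphan nuclear receptor induced by antigen receptor and calcium signals in lymphocytes, had 976 CPM in PBS-WT and 1624 in BLEO-WT, and 983 in PBS-HPS1 and 1265 in BLEO-HPS1. As scaled, both PBS libraries were alike within counting error, a log2 ratio of 0.01 (-0.00 to 0.02), and both bleomycin libraries were higher. By total counts the ratio of PBS-HPS1 to PBS-WT was 0.26. The bleomycin ratio of *Nr4a1* in *Hps1*-/- mice was -0.28 by total counts and -0.30 after the correction. *Atf3* (ENSMUSG00000026628, chromosome 1, 191170296 to 191218039, minus strand), a stress-induced repressor of inflammatory genes, had 378, 488, 297 and 377 CPM and was the least abundant of the 10 by CPM in every library. Its bleomycin log2 ratios were 0.37 in WT and 0.34 in *Hps1*-/- mice, a difference of -0.03 (-0.06 to 0.00) that lay within counting error as scaled. That difference was -0.41 by total counts and -0.43 after the correction for GC content and transcript length.

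*Ier2* and *Dusp1* followed *Junb*. *Ier2* (ENSMUSG00000053560, chromosome 8, 84661331 to 84662852, minus strand), a small nuclear regulator, had 560 CPM in PBS-WT and 852 in BLEO-WT, and 438 in PBS-HPS1 and 761 in BLEO-HPS1. *Dusp1* (ENSMUSG00000024190, chromosome 17, 26505590 to 26562128, minus strand), the phosphatase whose window above holds the full TGACGTCA element, had 2709 CPM in PBS-WT and 3858 in BLEO-WT, and 2192 in PBS-HPS1 and 3212 in BLEO-HPS1. In both genes PBS-HPS1 was the lowest library, and the bleomycin libraries were above the PBS libraries as scaled. Bleomycin log2 ratios were 0.60 in WT and 0.80 in *Hps1*-/- mice for *Ier2*, and 0.51 and 0.55 for *Dusp1*. With libraries scaled by total counts in place of TMM factors, the ratios in *Hps1*-/- mice turned to -0.09 in *Dusp1*, -0.28 in *Nr4a1* and -0.30 in *Atf3* and stayed above 0 in *Ier2* and *Junb*, at 0.15 and 0.30. Exons of *Dusp1*, *Jun*, *Junb* and *Jund* overlap genes on the opposite strand, *Ergic1*, *Junos*, *Prdx2* and *Gm11175*, and whether the counting used strand is not given in the sources used here. Without strand, the reads of such a pair cannot be told apart. Reads counted on *Ergic1* ranged from 3549 to 6102, on *Prdx2* from 7821 to 20290 and on *Junos* from 126 to 381, and *Gm11175* had 0.

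The first comparison asked what the loss of *Hps1* changed without injury. None of the 10 genes differed 2-fold between PBS-HPS1 and PBS-WT, where 2.16% of all genes were higher by 2-fold or more and 3.11% lower by as much. Apart from *Fosb*, the ratios lay between -0.35 for *Ier2* and 0.01 for *Nr4a1*. The median log2 ratio was -0.10, against -0.19 over all genes, and 6 of the 10 were above that median. By total counts, the median of all genes was 0.06 and that of the 10 genes 0.14, so that *Fos*, *Jun*, *Jund* and *Egr1* turned from slightly lower to slightly higher. The same 4 comparisons had all-gene medians under total counts of 0.06, -0.18, -0.43 and -0.18, against -0.19, 0.09, 0.25 and -0.04 as scaled, and ratios are therefore also read against these medians. The neutrophil markers had a median log2 ratio of -1.90 between PBS-HPS1 and PBS-WT, with 6 of 6 at least 2-fold lower. The macrophage and monocyte markers had a median of -0.59 and the fibroblast markers of 0.94. The part of these in the ratios of the 10 genes was not tested.

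The second comparison asked what bleomycin changed in WT mice. Every one of the 10 genes was higher in BLEO-WT than in PBS-WT as scaled, from a log2 ratio of 0.22 in *Jun* to 1.57 in *Fosb*, though by total counts *Jun* turned to -0.04. The median was 0.57 against 0.09 over all genes, and all 10 were above the median of all genes under either scaling. At least 2-fold, 1 of the 10 was higher and 0 lower, where 5.28% of all genes were higher by 2-fold or more and 8.22% lower by as much. The macrophage and monocyte marker sum was also higher in BLEO-WT, 16870 CPM against 11765, with 7 of its 8 genes higher, and its part in the result was not tested.

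The third comparison asked the same in *Hps1*-/- mice. Of the 10 genes 7 were higher and 3 lower in BLEO-HPS1 than in PBS-HPS1, with log2 ratios from -0.40 in *Jun* to 0.95 in *Junb* and a median of 0.46 against 0.25 over all genes. By total counts 4 were higher, *Fosb*, *Junb*, *Jund* and *Ier2*, and *Jun* reached a log2 ratio of -1.04. None differed 2-fold as scaled, although 26.2% of all genes were higher by 2-fold or more and 19.6% lower by as much between these libraries. By total counts the split over all genes turned from 3893 higher and 2913 lower to 1360 higher and 5175 lower. The macrophage and monocyte marker sum was higher in BLEO-HPS1, 15424 CPM against 7758, the fibroblast marker sum was 2680 against 298, and 6 of 6 fibroblast markers were higher. The part of either in the ratios of the 10 genes was not tested.

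The last comparison set the genotypes side by side after bleomycin. In BLEO-HPS1 9 of the 10 genes were lower than in BLEO-WT, the exception being *Jund*, with a median log2 ratio of -0.35 against -0.04 over all genes. None was 2-fold lower or higher, where 6.72% of all genes were higher by 2-fold or more and 10.3% lower by as much. The lowest ratios were those of *Egr1* at -0.80, *Fos* at -0.72 and *Jun* at -0.65. The bleomycin ratio in *Hps1*-/- mice minus that in WT mice ranged from -0.92 in *Fosb* to 0.28 in *Jund*, with a median of -0.20 against 0.15 over all genes. None reached 2-fold, where 16.3% of all genes had a difference of at least 2-fold upwards and 11.2% downwards. By total counts all 10 differences were below 0, and those of *Fosb*, *Jun* and *Egr1* were 2-fold, but the median of all genes was then -0.25, with 3347 genes 2-fold lower and 1050 higher of 15006, and 3 of the 10 lay above that median under either scaling. The neutrophil markers had a median log2 ratio of -1.15 between BLEO-HPS1 and BLEO-WT, with 4 of 6 at least 2-fold lower, the fibroblast markers 2.32, with 5 of 6 at least 2-fold higher, the T cell markers 0.97 and the B cell markers 1.24. The macrophage and monocyte markers had a median of -0.53. The part of these in the lower levels of the 10 genes was not tested.

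Log2 ratios between these libraries moved with the composition of the transcripts, and the 10 genes are rich in GC. All 10 lay above the median GC content of 49.8% for the genes compared, from 51.9% in *Fos* to 67.1% in *Jund*, and their median transcript length was 2210.5 bases against 3228. Across 11133 genes, which are not independent replicates and share these libraries, the ratio of BLEO-HPS1 to BLEO-WT had a Spearman correlation of 0.61 with GC content and -0.49 with transcript length. For BLEO-HPS1 against PBS-HPS1 they were 0.60 and -0.52, for BLEO-WT against PBS-WT 0.49 and -0.26, and for PBS-HPS1 against PBS-WT -0.07 and 0.43. Within the 10 genes the ratio of BLEO-HPS1 to BLEO-WT followed GC content too, with a Spearman rho of 0.64, and once the ratios were corrected for GC content and length by a loess fit rho was 0.30. With the correction, *Egr1* had a log2 ratio of -1.10, *Fos* of -1.03 and *Jun* of -1.01 between BLEO-HPS1 and BLEO-WT, each 2-fold lower, and *Jund* turned from 0.24 to -0.39. Over all 14840 genes, 686 were at least 2-fold lower and 748 higher with the same correction. All 10 were then below the median of all genes in that comparison, with a median of -0.77 against -0.06.

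**Figure D3:**
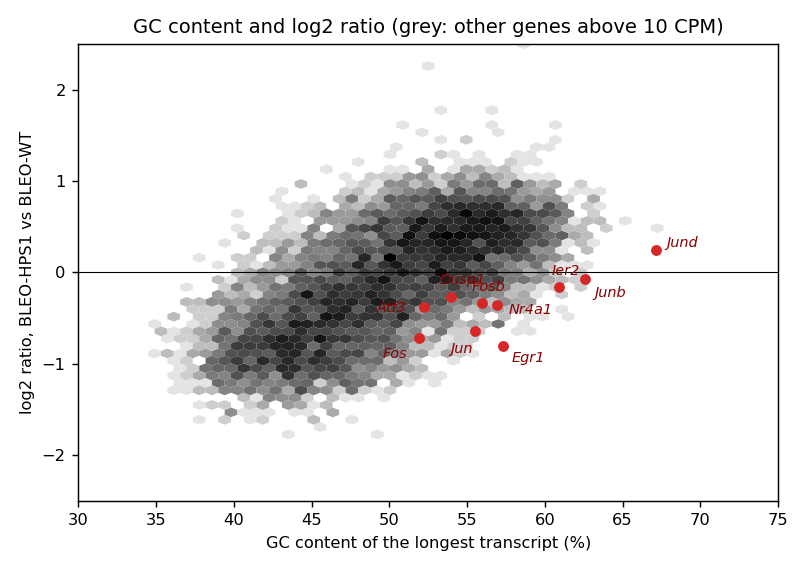
GC content of the longest transcript in percent (horizontal) against the log2 ratio between BLEO-HPS1 and BLEO-WT (vertical). Red points are the 10 genes and grey cells the other genes with a mean above 10 CPM, darker where there are more; the grey cloud rises with GC content, and the red points lie below the middle of the cloud at their GC content, with *Egr1* at -0.80 and *Jund* at 0.24.

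The correction also bore on the other comparisons. For bleomycin in WT mice the 10 genes stayed above 0, with a median of 0.38 against 0.15 over all genes, 9 of 10 were above that median, and *Fosb* remained 2-fold higher at 1.40. Over all 14840 genes, 861 were at least 2-fold higher and 782 lower in that comparison. For bleomycin in *Hps1*-/- mice the median turned from 0.46 to -0.22, 2 of 10 genes, *Fosb* at 0.20 and *Junb* at 0.01, were above 0 and none was above the all-gene median of 0.32. With PBS the ratios moved little, with a median of -0.12.

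**Figure D4:**
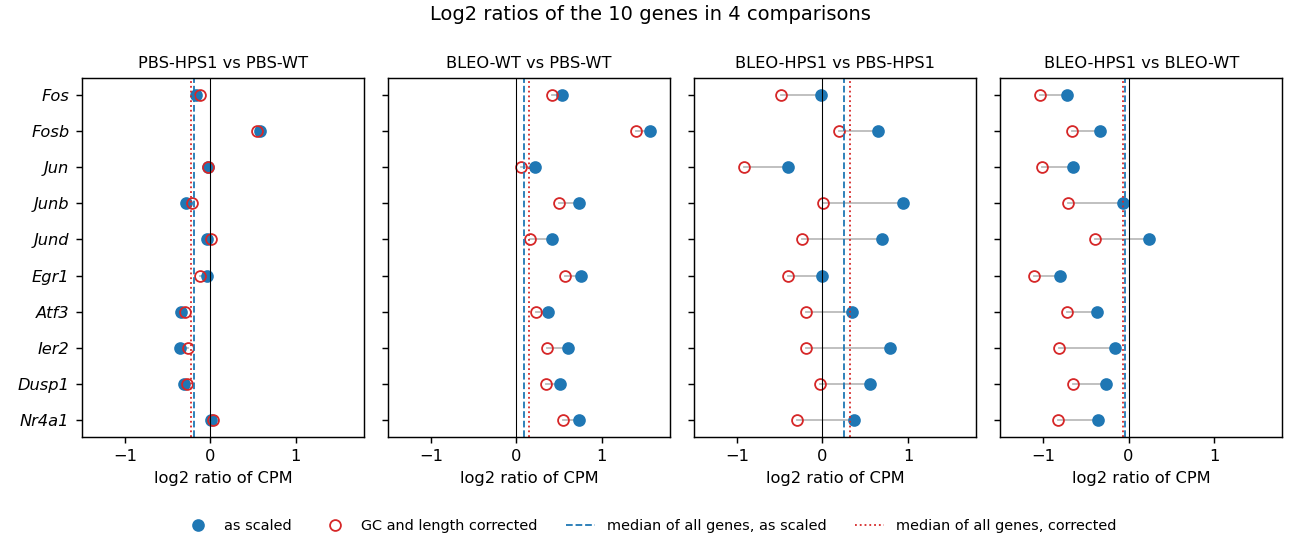
Log2 ratios of the 10 genes in the 4 comparisons, as scaled (filled) and after correction for GC content and transcript length (open), with the medians of all genes as vertical lines. In BLEO-WT against PBS-WT all 10 genes are above 0 under both, whereas in BLEO-HPS1 against PBS-HPS1 the corrected points, from -0.92 to 0.20, all lie below the corrected median of all genes.

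Other immediate early genes shared the high levels in BLEO-WT. Of 29 such genes compared, 23 were highest in that library, against 19.1% of all genes. In BLEO-WT against PBS-WT 8 were 2-fold or more higher and 0 lower, against 5.28% and 8.22% of all genes. Their median log2 ratio was 0.58. The widest ranges were those of *Ier3*, a survival gene, *Socs3*, an inhibitor of cytokine signalling through JAK and STAT proteins, *Arc* and *Gadd45b*, a stress sensor. *Ier3* had 156 CPM in PBS-WT and 551 in BLEO-WT, and 146 in PBS-HPS1 and 412 in BLEO-HPS1. *Socs3* had 409, 1360, 360 and 1080 CPM, and *Gadd45b* 183, 558, 163 and 532. *Arc*, at 4.45, 11.1, 4.53 and 15.5 CPM, was the lowest of these 4. These 4 were high in both bleomycin libraries, but of the 29 genes 12 were higher with bleomycin in *Hps1*-/- mice, where 8475 of 14840 genes were. The median log2 ratio of the 29 was -0.31 against 0.25 over all genes. At least 2-fold, 5 were higher and 2 lower, against 26.2% and 19.6% of all genes. After the correction these counts were 1 and 0, where 2799 of 14840 genes were higher by as much and 1196 lower. Between BLEO-HPS1 and BLEO-WT, 10 of the 29 were at least 2-fold lower and 0 higher, against 10.3% and 6.72% of all genes. Their median was -0.56. After the correction 6 were at least 2-fold lower, where 686 of 14840 genes were lower by as much.

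The relatives of *Nr4a1* and *Egr1*, which are also counted among the other immediate early genes above, were highest in BLEO-WT. *Nr4a2* had 43.6 CPM in PBS-WT and 97.3 in BLEO-WT, and 68.7 in PBS-HPS1 and 30.6 in BLEO-HPS1. *Nr4a3*, named after its values were seen, had 57.6, 131, 89.8 and 55.2 CPM, and *Egr2* 71.2, 155, 92.6 and 60.2. All 3 were at least 2-fold higher with bleomycin in WT mice and had negative log2 ratios in *Hps1*-/- mice, -1.16, -0.70 and -0.62. After the correction the latter were -0.87, -0.08 and -0.88. *Nab1*, which encodes a corepressor of EGR proteins, had 85.01, 44.1, 72.4 and 24.0 CPM, and *Ncor1*, which encodes a nuclear receptor corepressor, had 302, 193, 288 and 107. For *Nab1* and *Ncor1* the log2 ratios of BLEO-HPS1 to PBS-HPS1 were -1.59 and -1.43 as scaled, and -1.15 and -0.42 after the correction.

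**Figure D5:**
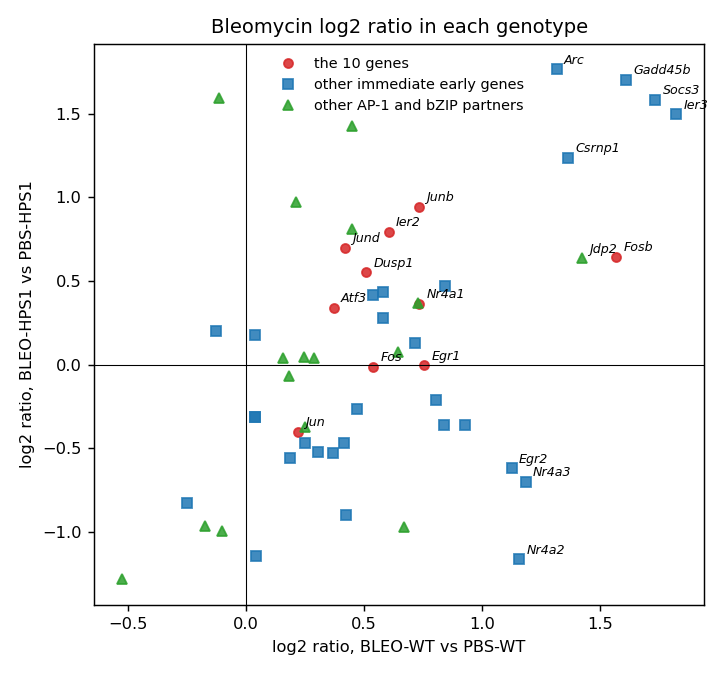
Log2 ratio of bleomycin to PBS in WT mice (horizontal) and in *Hps1*-/- mice (vertical) for the 10 genes, 29 other immediate early genes and 16 other AP-1 and bZIP genes, 1 point per gene. *Junb*, *Ier2* and *Dusp1* lie above 0 on both axes, *Fos* and *Egr1* on the horizontal axis, and *Nr4a2*, *Nr4a3* and *Egr2* right of 1 and below 0.

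Of 16 other AP-1 and bZIP partners, 1 was 2-fold or more higher and 0 lower in BLEO-WT against PBS-WT. Over all genes the shares were 5.28% and 8.22%. The higher gene was *Jdp2*, a JUN dimerization partner, with 36.7, 98.3, 53.7 and 83.4 CPM over the 4 libraries. In BLEO-HPS1 against BLEO-WT 2 were at least 2-fold lower and 0 higher, where 10.3% of all genes were lower and 6.72% higher. One was *Atf1*, a CREB relative, with 69.1, 64.5, 54.2 and 27.2 CPM. The other, *Fosl2*, a FOS relative named here after its values were seen, had 630 CPM in PBS-WT and 1004 in BLEO-WT, and 875 in PBS-HPS1 and 446 in BLEO-HPS1. *Batf*, which pairs with JUN proteins in lymphocytes, had 37.0, 50.5, 35.4 and 62.1 CPM, and *Batf3* 13.6, 12.5, 6.78 and 20.5. Like *Jund*, both were highest in BLEO-HPS1. *Atf2* had 34.4, 23.9, 31.7 and 13.0 CPM, and its log2 ratio of BLEO-HPS1 to PBS-HPS1, -1.29, was 0.02 after the correction.

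Of 16 SRF, ternary complex and CREB factors, 0 differed 2-fold in BLEO-WT against PBS-WT. In BLEO-HPS1 5 were at least 2-fold lower than in BLEO-WT, against 10.3% of all genes. After the correction that count was 0, where 686 of 14840 genes were lower by as much. *Srf* itself had 89.9 CPM in PBS-WT and 106 in BLEO-WT, and 69.4 in PBS-HPS1 and 138 in BLEO-HPS1, *Elk1* 16.02, 22.0, 17.8 and 26.1, and *Creb1* 85.7, 43.2, 83.3 and 24.4. As scaled, their log2 ratios of BLEO-HPS1 to PBS-HPS1 were 0.99, 0.55 and -1.77. After the correction they were 0.20, 0.34 and 0.11. Of 19 MAP kinase genes, 0 differed 2-fold between BLEO-WT and PBS-WT. In BLEO-HPS1 against PBS-HPS1, 4 were higher and 4 lower, and 1 and 0 after the correction. Before it, 26.2% of all genes were higher by as much and 19.6% lower. After it, 2799 of 14840 genes were higher by as much and 1196 lower. The widest ranges were those of *Braf*, with 32.5, 20.7, 35.9 and 8.69 CPM, and *Rps6ka3*, with 170, 109, 148 and 47.1. Their log2 ratios of BLEO-HPS1 to PBS-HPS1 were -2.04 and -1.66 as scaled, and -0.35 and 0.03 after the correction. Of 14 feedback inhibitors of MAP kinase signalling beside *Dusp1*, 1 was 2-fold or more higher and 1 lower in BLEO-WT against PBS-WT. Over all genes the shares were 5.28% and 8.22%. The lower gene was *Spry2*, with 30.4, 15.2, 52.3 and 18.8 CPM. *Dusp2*, an inducible nuclear phosphatase, had 120, 167, 130 and 233 CPM, and *Dusp16* 40.3, 31.7, 48.9 and 16.3. Of 10 genes for NFAT factors and calcineurin, 0 differed 2-fold between BLEO-WT and PBS-WT. *Nfat5* had 48.5, 31.5, 67.2 and 14.0 CPM, whereas *Rcan1*, a calcineurin regulator induced by NFAT, had 31.9, 51.0, 33.0 and 61.9 and was higher in both bleomycin libraries. Log2 ratios of BLEO-HPS1 to PBS-HPS1 were -2.26 in *Nfat5* and 0.91 in *Rcan1* as scaled, and -0.38 and 0.30 after the correction. In WT mice the bleomycin ratios were -0.63 and 0.68 as scaled, and 0.09 and 0.51 after the correction.

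Heat shock genes, which together with immediate early genes are raised when tissue is dissociated, had another pattern. Of 15 such genes, 4 were at least 2-fold higher and 0 lower in PBS-HPS1 than in PBS-WT, against 2.16% and 3.11% of all genes. In BLEO-WT 0 were higher and 1 lower than in PBS-WT, against 5.28% and 8.22% of all genes. *Hspa1b*, an inducible HSP70 gene, had 108 CPM in PBS-WT and 75.5 in BLEO-WT, and 304 in PBS-HPS1 and 56.5 in BLEO-HPS1. *Hsph1* had 74.5, 41.2, 186 and 31.8 CPM, *Dnaja1* 278, 181, 405 and 105, and *Hsp90aa1* 324, 152, 424 and 113. These 4 genes, named for the widest ranges of the list, were highest in PBS-HPS1, whereas none of the 10 genes was highest there as scaled. They are not the 4 counted as 2-fold higher, since the log2 ratios of PBS-HPS1 to PBS-WT were 0.55 in *Dnaja1* and 0.39 in *Hsp90aa1*. Other genes of the list were highest elsewhere, 2 of the 15 in BLEO-WT.

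Outside all lists, the genes whose pattern over the 4 libraries was closest to the median pattern of the 10 genes were *Glul*, *St6gal1*, *Mnt*, *Sipa1l2* and *Flcn*. Their centred log2 CPM differed from it by a root mean square of 0.033 to 0.045 among 7981 candidate genes with at least 10 CPM in every library. *Glul*, which encodes glutamine synthetase, had 441 CPM in PBS-WT and 681 in BLEO-WT, and 418 in PBS-HPS1 and 529 in BLEO-HPS1. Among the 10, *Nr4a1* and *Dusp1* were closest to the median pattern, at 0.057 and 0.077, and *Fosb* and *Jun* farthest, at 0.39 and 0.32.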

How the data were processed

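Sorted lung ILC2s were kept in culture with IL-2, and their RNA was sequenced in 4 libraries, 1 per group, made with a SMARTER mRNA kit. The authors deposited raw counts of reads for each Ensembl gene. The aligner, the counting tool and the genome build are not given in the sources used here. Of the 49315 identifiers, 49056 were found in GENCODE M21 (GRCm38), the source of positions, exon lengths and GC contents. Where 2 identifiers shared a symbol, the one with more reads was used.

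Counts were scaled with TMM factors (edgeR 4.0.16, R 4.3.3), and ratios of log2 CPM used a prior count of 2. Genes reaching 1 CPM in some library were compared. No test was made with 1 library per group, so a gene counted as different with a fold of at least 2. Intervals are exact Clopper-Pearson intervals at 95% for counting error, except that of the difference between bleomycin ratios, which is a normal approximation. The ratios were also corrected by loess (span 0.3) for GC content and length of the longest transcript. The other alternatives were DESeq2 1.42.0 size factors, total counts, a log2 threshold of 2, unfiltered genes, a minimum of 10 counts in every library, and prior counts of 0.5 and 10.

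The 10 genes, 16 further gene lists and the comparisons were chosen with earlier results of these data known. Named are all 10 genes, at most 4 genes of each list with the largest range of log2 CPM among those with at least 10 CPM in 1 library, *Srf*, *Elk1*, *Batf*, the sort genes, *Nr4a3* and *Fosl2* (both after their values were seen), and the 5 genes closest to the median pattern. A gene of 1 list is not reported here.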

Additional observations from a re-analysis of the deposited data

Results flagged for a closer look

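For 3 of the 10 genes the bleomycin library was above the PBS library in WT mice and below it in *Hps1*-/- mice, and with 1 library per group this difference between genotypes was not tested. The bleomycin log2 ratio in *Hps1*-/- mice minus that in WT mice was -0.55 for *Fos* (-0.01 against 0.54), -0.62 for *Jun* (-0.40 against 0.22) and -0.76 for *Egr1* (-0.00 against 0.75). The ratio of *Egr1* in *Hps1*-/- mice lay within counting error (-0.02 to 0.01), so its sign is not settled even by the reads. The count depended on the scaling, with 2 of the 10 genes (*Fos* and *Jun*) under DESeq2 size factors, 5 by total counts (*Fos*, *Egr1*, *Atf3*, *Dusp1* and *Nr4a1*) and 8 after the GC content and length correction (all but *Fosb* and *Junb*). The ratios in *Hps1*-/- mice were -0.65 for *Egr1* and -0.66 for *Fos* by total counts and -0.41 and -0.49 after the correction, and that of *Jun* in WT mice was -0.04 by total counts. Of the other immediate early genes, 16 of 29 had a positive ratio in WT and a negative one in *Hps1*-/- mice, against 10.2% of all 14840 genes compared. The differences were -0.93 for *Fos*, -1.0003 for *Jun* and -1.14 for *Egr1* by total counts and -0.90, -0.97 and -0.98 after the GC content and length correction.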

How the results depend on the processing

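Of 50 ratios and differences of the 10 genes, the sign changed in 2 with DESeq2 size factors, in 12 with total counts and in 11 with the GC content and length correction, and in 0 with the other prior counts or filters. The largest shifts of a log2 ratio were 0.061, 0.64 and 0.99 in that order. By total counts 1 gene was 2-fold lower in BLEO-HPS1 than in PBS-HPS1, and 3 had a 2-fold difference between the bleomycin ratios of the genotypes, where 3347 of 15006 genes were 2-fold lower and 1050 higher. After the correction, 3 genes were 2-fold lower in BLEO-HPS1 than in BLEO-WT and 1, *Fosb*, had a 2-fold difference between the genotypes. At a log2 threshold of 2, 0 of the 10 were higher in BLEO-WT than in PBS-WT. By total counts the all-gene split of 2-fold higher and lower genes went from 321 and 461 to 657 and 303 in PBS-HPS1 against PBS-WT, from 783 and 1220 to 475 and 2007 in BLEO-WT against PBS-WT, and from 997 and 1530 to 739 and 2225 in BLEO-HPS1 against BLEO-WT. After the correction the splits for bleomycin in WT and *Hps1*-/- mice and between genotypes after bleomycin were 861 and 782, 2799 and 1196, and 748 and 686. For the difference between the bleomycin ratios of the genotypes the corrected split was 1565 and 863. No paired analysis was possible because each group had 1 library, and for the same reason no library could be left out of a group. Which of these settings is nearer the RNA of the cells was not tested.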
